A study of Mus musculus with 6 samples.

Results

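The genes described here are 43 named genes of glutathione metabolism, the glutathione transferases and the antioxidant enzymes, measured in dissected mouse kidney proximal tubules with and without Clcn5. They were chosen by name, with earlier results of these data known. A probe set counted for a gene only if the array's annotation gave it that 1 symbol, and of several the probe set with the highest mean log2 signal stood for the gene. On that rule 40 of the 43 genes had a probe set, out of 18193 genes on the array, and 37 of them passed the filter on dim signals, out of 11620 genes tested. The 3 genes under the filter were Gpx7, Gstm6 and Mgst2. Prdx1, Prdx5 and Prdx6 had no probe set under this rule and were not analysed here.

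There were 3 arrays from Clcn5 knockout mice and 3 from wild type mice. The Clcn5 gene product, ClC-5, exchanges chloride for protons in endosomes of the proximal tubule, and its loss causes Dent disease in humans. Both groups were dissected in ice-cold salt solution from kidneys perfused under halothane, with 80 to 100 segments of 2 mm from each kidney. Each array received RNA pooled from 3 to 4 mice by the series' design text, or from 7 mice by the records stored with the arrays, where each array is numbered as a separate biological replicate. The labels used here give no strain, age or sex, and do not say which part of Clcn5 was removed. The values are Affymetrix MAS5 signals on a linear scale, scaled so that each array has the same trimmed mean of 150.

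Clcn5 itself was 2.89-fold lower in knockout tubules on its brightest probe set, by limma with Benjamini-Hochberg adjustment (adjusted p = 9.32e-05). Its 4 probe sets above the filter were 2.83-fold to 7.31-fold lower (adjusted p up to 0.00733 over all probe sets), and which of them read the deleted part is not known here. The median signal of an array was 40.9 to 48.8, with the highest value on knockout array 3, and the fluidics stations each washed arrays of both groups. Summed signals of marker lists showed the proximal tubule and other cells. The sums are of linear signals, so bright genes weigh most. Among all tested genes 3.24% were called higher and 3.24% lower. Markers of segments S1 and S2 summed to 34324 to 36543 in knockout and 34665 to 38520 in wild type, and 1 of 10 was called, lower. Those of segment S3 summed to 21775 to 23708 in knockout and 18573 to 20065 in wild type, with 2 of 10 called higher. Leukocyte markers summed to 4608 to 4936 in knockout and 3180 to 3240 in wild type, with 4 of 11 tested called higher and Aif1 under the filter. Markers of the thick ascending limb (14063 to 15529 in knockout, 11918 to 12463 in wild type), intercalated cells (2532 to 2576 in knockout, 2079 to 2173 in wild type) and podocytes (1376 to 1647 in knockout, 1102 to 1145 in wild type) also had higher sums, with 2 called higher in each. Of the distal convoluted and connecting tubule markers 4 of 6 were called higher (16595 to 17446 in knockout, 13997 to 16252 in wild type). Of the principal cell markers 2 of 7, Aqp2 and Aqp3, were called lower (3629 to 3847 in knockout, 3956 to 4462 in wild type). Among the uncalled ones, all knockout signals lay below all wild type signals for Fxyd4 (log2 change −0.2) and above them for Scnn1g (0.28). None of 10 tested endothelial markers was called, and their sums overlapped (2729 to 2969 in knockout, 2753 to 2811 in wild type). Markers of fibroblasts, pericytes and smooth muscle had higher sums in knockout (1173 to 1233 in knockout, 1050 to 1108 in wild type), with none of 6 tested called and Col1a1, Pdgfra and Myh11 under the filter. Erythroid markers summed to 418 to 434 in knockout and 275 to 309 in wild type, where Hba-a1 and Alas2 were under the filter and Slc4a1, also an intercalated cell marker, was called higher. The part of these cells in the results below was not tested, and fewer cells of a type cannot be told apart from less RNA per cell.

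Glutathione is a tripeptide made from glutamate, cysteine and glycine, first by glutamate-cysteine ligase (catalytic subunit Gclc, modifier subunit Gclm) and then by glutathione synthetase (Gss). Glutathione peroxidases use it to reduce peroxides, glutathione transferases couple it to reactive or foreign compounds, and glutathione reductase (Gsr) regenerates it with NADPH, while thioredoxin, the peroxiredoxins and the superoxide dismutases form parallel defences. The transcription factor NRF2 (Nfe2l2), held in check by KEAP1, drives many of these genes, and the proximal tubule is a main site of glutathione turnover in the body.

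In knockout tubules 4 of the 37 tested genes fell and none rose. The microsomal transferase gene Mgst1 was 1.62-fold lower, Gclc 1.35-fold lower, the alpha class transferase gene Gsta2 1.27-fold lower and the microsomal transferase gene Mgst3 1.23-fold lower, each at an adjusted p under 0.05 by limma. The share called lower was 10.8% of these genes, where 3.24% of all 11620 tested genes were called lower, and 3.24% were called higher. At an unadjusted p under 0.05 there were 8 of the 37 genes, and 19.4% of all genes. The remaining 33 genes were not called, and in 30 of them the 95% interval of the log2 change lay inside ±0.5. The median standard error of the log2 change was 0.074 for the 37 genes, against 0.115 for all tested genes. The median log2 change of the 37 genes was −0.01, and that of all tested genes 0.01.

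**Figure D1:**
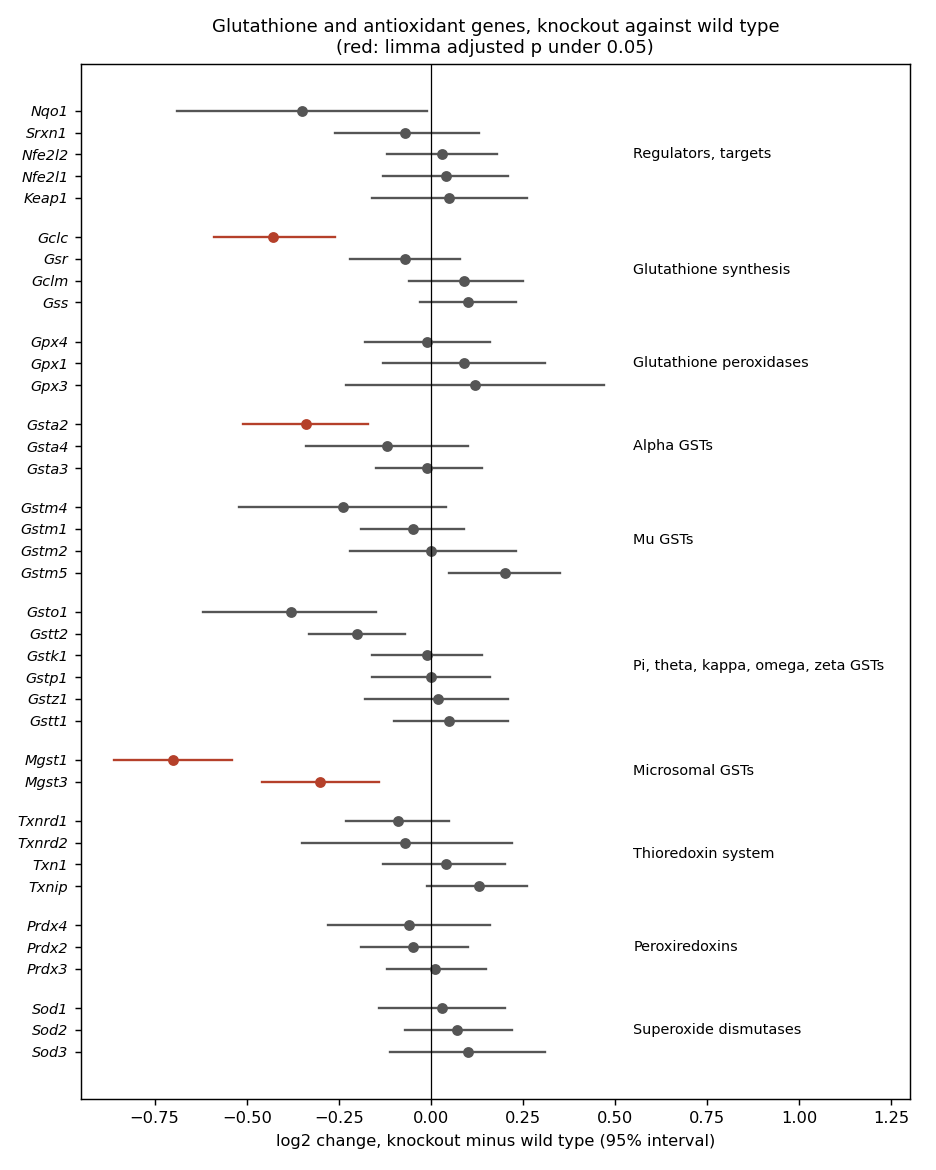
Log2 change of the 37 tested genes, knockout minus wild type, grouped by role, with 95% intervals from limma (n = 3 arrays per group). Red marks adjusted p under 0.05. Gclc, Gsta2, Mgst1 and Mgst3 lie left of 0, and most other genes lie within ±0.2.

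The 3 knockout signals lay below the 3 wild type signals in 7 of the 37 genes, which is 18.9%, against 11.6% of all tested genes. They lay above in 3 genes (Gss, Gstm5 and Txnip), which is 8.11%, against 13.6% of all tested genes. By role, 10 of the 19 genes with a log2 change below 0 were transferases, and the median log2 change of the transferases was −0.05. Of 15 tested transferases 3 fell and none rose, so that 20% were called lower, against 3.24% of all tested genes. In 6 of them, or 40%, knockout signals lay below all wild type signals, against 11.6% of all tested genes. For 1 of the 6, Gstm4, the nearest signals were 115 in knockout and 116 in wild type. Among the 22 tested genes of the other roles 1 fell, which is 4.55%, and none rose. Of the transferase calls, that of Mgst1 was kept within station 1, and those of Gsta2 and Mgst3 ended there. The genes were chosen with earlier results of these data known, so these shares are no test of them as a set.

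Among the regulators none was called. NRF2's transcript, Nfe2l2, had signals of 839, 881 and 774 on the knockout arrays and 797, 847 and 797 on the wild type arrays. The groups overlapped, and the log2 change was 0.03 (95% interval −0.12 to 0.18). Nfe2l1, which encodes a related factor that controls proteasome genes, had a log2 change of 0.04, and Keap1, the adaptor that marks NRF2 for degradation, 0.05 (95% interval −0.16 to 0.26). A second Keap1 probe set, 1450747_at, was at −0.21 and was not called (limma adjusted p = 0.542 over all probe sets). The array measures transcripts, so it does not read NRF2 protein or its location.

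Nqo1 and Srxn1 are widely used readouts of NRF2 activity. Nqo1, a quinone reductase, had signals of 197, 206 and 280 on the knockout arrays and 298, 334 and 238 on the wild type arrays. Knockout array 3 lay above wild type array 3, so the groups overlapped, and the log2 change of −0.35 (SE 0.15) did not pass the test (limma adjusted p = 0.238). Srxn1, sulfiredoxin, which restores overoxidised peroxiredoxins, had a log2 change of −0.07 on its representative probe set, 1451680_at. Another of its probe sets, 1419942_at, read 69.9, 126 and 84.2 on the knockout arrays and 148, 150 and 174 on the wild type arrays. On 1419942_at the groups did not overlap, and the log2 change of −0.80 was not called by limma over all probe sets (adjusted p = 0.116). The average of the 4 Srxn1 probe sets above the filter had a log2 change of −0.30 and was not called (limma adjusted p = 0.0771).

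In glutathione synthesis the catalytic subunit fell and the other enzymes were not called. Gclc had signals of 1345, 1302 and 1161 on the knockout arrays and 1735, 1597 and 1788 on the wild type arrays. All knockout values lay below all wild type values, with means of 1269 ± 96.5 in knockout and 1707 ± 98.4 in wild type (SD, n = 3), a log2 change of −0.43 (SE 0.07) and a limma adjusted p of 0.0052. The call of Gclc was kept without each array in turn (adjusted p up to 0.034) and ended at 0.0548 when the variances were moderated without an intensity trend. A second Gclc probe set, 1455959_s_at, was also lower on every knockout array (940, 887 and 649 in knockout, 1174, 1100 and 1233 in wild type). Its log2 change of −0.52 was not called by limma over all probe sets (adjusted p = 0.101), a fit in which 1424296_at, the representative, had 0.0231.

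Gclm, the modifier subunit, had signals of 1328, 1412 and 1207 in knockout and 1222, 1190 and 1278 in wild type, which overlap. Its log2 change was 0.09 (95% interval −0.06 to 0.25, limma adjusted p = 0.533). Set against Gclm on the same arrays, Gclc was lower by 0.52 on the log2 scale in knockout than in wild type. This ratio did not overlap between the groups, with an exact two-sided permutation p of 0.1, the smallest that 3 arrays against 3 allow. It was 1 of 9 such pairs, chosen after their values were seen, and all 9 gave 0.1. Benjamini-Hochberg adjustment over such pairs left 0.1 and corrects nothing, so that p is not an independent test. Gss had signals of 1433, 1412 and 1357 in knockout and 1264, 1339 and 1318 in wild type. Although these did not overlap, the log2 change of 0.10 was not called (limma adjusted p = 0.401). Gsr had 1655, 1795 and 1835 in knockout and 1833, 1759 and 1959 in wild type, with a log2 change of −0.07, and its second probe set, 1421816_at, was at 0.17.

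The membrane-bound transferases included Mgst1, the gene with the smallest adjusted p of the 37. Mgst1 encodes a transferase and peroxidase of the endoplasmic reticulum and outer mitochondrial membrane that acts on lipid peroxides. Its signals were 1005, 1118 and 954 on the knockout arrays and 1686, 1604 and 1696 on the wild type arrays. The gap between the groups was wide, with means of 1026 ± 83.6 in knockout and 1662 ± 50.6 in wild type (SD, n = 3), a log2 change of −0.70 (SE 0.07) and a limma adjusted p of 0.000162. Mgst1 was called under all 17 alternative settings in which it had a value, with log2 changes of −0.76 to −0.65 and adjusted p up to 0.00832. On the arrays of station 1 the log2 change of Mgst1 was −0.67, and knockout array 3 stood −0.75 from wild type array 2 on station 2.

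Mgst3, of the same protein family, had signals of 1162, 1208 and 1069 in knockout and 1365, 1363 and 1508 in wild type. The groups did not overlap and the log2 change was −0.30 (SE 0.07, limma adjusted p = 0.0288). The call of Mgst3 was less firm, since it was kept without knockout array 2 and ended without any of the other 5 arrays (adjusted p up to 0.114) or within station 1 (0.115). A second and dim Mgst3 probe set, 1450563_at, was at −0.10, and the call also ended when both were averaged (0.164). In the limma fit over all probe sets the brighter Mgst3 probe set had an adjusted p of 0.0911. Mgst2 was under the filter, with signals of 4.71, 3.25 and 5.96 in knockout and 4.13, 17.8 and 16.7 in wild type, and was not tested.

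Among the cytosolic alpha class transferases, which handle products of lipid peroxidation, Gsta2 fell. Its signals were 2369, 2458 and 2062 in knockout and 2823, 2914 and 2967 in wild type. Every knockout value was lower, with means of 2296 ± 208 in knockout and 2901 ± 72.6 in wild type (SD, n = 3), a log2 change of −0.34 (SE 0.08) and a limma adjusted p of 0.0205. The call of Gsta2 ended without each of the 3 wild type arrays (adjusted p up to 0.0733) and within station 1 (0.0939). In the limma fit over all probe sets its adjusted p was 0.0642. Gsta2 has close relatives, and a further probe set annotated with Gsta1 and Gm3776 as well was not used. Gsta3 had a log2 change of −0.01 and Gsta4, which conjugates the lipid aldehyde hydroxynonenal, one of −0.12, and their groups overlapped.

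Of the 3 transferases that fell, the RefSeq promoter table gives windows before the start sites, and Gclc is not in it. They are shown because these genes were lower together, and were searched for TGACNNNGC on both strands, the core of the antioxidant response element to which NRF2 binds with small MAF proteins. The 250 bases upstream of a start of each gene follow, 5′ to 3′ on the gene's strand (RefSeq, GRCm38.p6), at chr6:138140277-138140526 on the plus strand, chr9:78347146-78347395 on the minus strand and chr1:167393842-167394091 on the minus strand. Capitals mark a match to the motif.
Mgst1: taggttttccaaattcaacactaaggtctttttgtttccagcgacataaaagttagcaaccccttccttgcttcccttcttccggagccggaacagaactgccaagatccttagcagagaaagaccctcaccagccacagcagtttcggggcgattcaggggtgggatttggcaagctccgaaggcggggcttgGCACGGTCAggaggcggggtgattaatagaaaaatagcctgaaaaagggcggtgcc
Gsta2: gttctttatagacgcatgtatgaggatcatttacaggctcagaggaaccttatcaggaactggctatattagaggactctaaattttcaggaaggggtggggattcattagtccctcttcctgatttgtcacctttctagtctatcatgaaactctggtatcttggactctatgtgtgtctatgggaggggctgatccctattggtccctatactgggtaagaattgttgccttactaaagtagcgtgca
Mgst3: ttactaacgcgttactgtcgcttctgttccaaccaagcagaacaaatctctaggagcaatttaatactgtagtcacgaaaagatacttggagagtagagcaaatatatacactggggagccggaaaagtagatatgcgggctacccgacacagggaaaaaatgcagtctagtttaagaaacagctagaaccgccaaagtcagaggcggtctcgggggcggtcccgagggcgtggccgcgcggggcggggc

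The Mgst1 window held 1 match, GCACGGTCA, which is the motif read on the opposite strand and begins 56 bases before the start. The window of a second Mgst1 start, and those of Gsta2 and Mgst3, held no match. Of the 43 named genes, 37 were in the table, and 8 of them had a match in at least 1 window: Gclm, Gsta3, Gstm5, Mgst1, Nfe2l2, Prdx1, Sod1 and Txnrd1. That is 21.6% of the genes, against 11.5% of all 27025 genes in the table. A gene can have several windows. Counted by window, 8 of 52 had a match, or 15.4%, against 10.2% of all 32851 windows. Apart from Mgst1, none of the tested genes with a match was called, and their log2 changes were −0.09 (Txnrd1) to 0.20 (Gstm5). A match describes the letters only and is not evidence of a bound site.

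The mu class genes lie side by side on chromosome 3 in RefSeq, in the order Gstm5, Gstm7, Gstm6, Gstm3, Gstm2, Gstm1 and Gstm4, and none of the 4 tested ones was called. Gstm5 had signals of 2897, 3029 and 2946 in knockout and 2661, 2399 and 2676 in wild type. All knockout values were above all wild type values, at a log2 change of 0.20 (SE 0.07), which missed the threshold by limma (adjusted p = 0.121) and passed it after quantile normalization (0.0447; 0.0447 to 0.314 over the alternatives). At the other end of the cluster Gstm4 had signals of 115, 99.8 and 106 in knockout and 132, 131 and 116 in wild type, with a log2 change of −0.24 (adjusted p = 0.343). Gstm1 and Gstm2 had log2 changes of −0.05 and 0.00. Gstm6 was under the filter, with signals of 10.8 to 21.2 in knockout and 22.1 to 29.6 in wild type. The mu class sequences are alike, so the probe sets may share targets.

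Of the other cytosolic classes, the omega class gene Gsto1 and the theta class gene Gstt2 came nearest to the threshold. Gsto1, which encodes a thiol transferase and dehydroascorbate reductase, had signals of 509, 522 and 396 in knockout and 613, 662 and 577 in wild type. The groups did not overlap, and the log2 change of −0.38 (SE 0.11) was not called by limma (adjusted p = 0.0605). A second Gsto1 probe set, 1416531_at, read 418, 409 and 412 in knockout and 525, 459 and 543 in wild type, and Gsto1 was called when both were averaged (adjusted p = 0.0176; 0.0145 to 0.245 over the alternatives). Gstt2 had 1850, 1852 and 1743 in knockout and 2082, 2036 and 2126 in wild type, also without overlap, at a log2 change of −0.20 (SE 0.06, limma adjusted p = 0.0839). Gstt1, separated from Gstt2 by Gstt4 in RefSeq on chromosome 10, had a log2 change of 0.05. Gstp1, the pi class transferase, had 3671, 4027 and 3790 in knockout and 3772, 3629 and 4088 in wild type. Those groups overlap fully and the log2 change was 0.00 (95% interval −0.16 to 0.16). The mitochondrial and peroxisomal kappa class gene Gstk1 was at −0.01. Gstz1, which also isomerises maleylacetoacetate in tyrosine breakdown, was at 0.02.

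**Figure D2:**
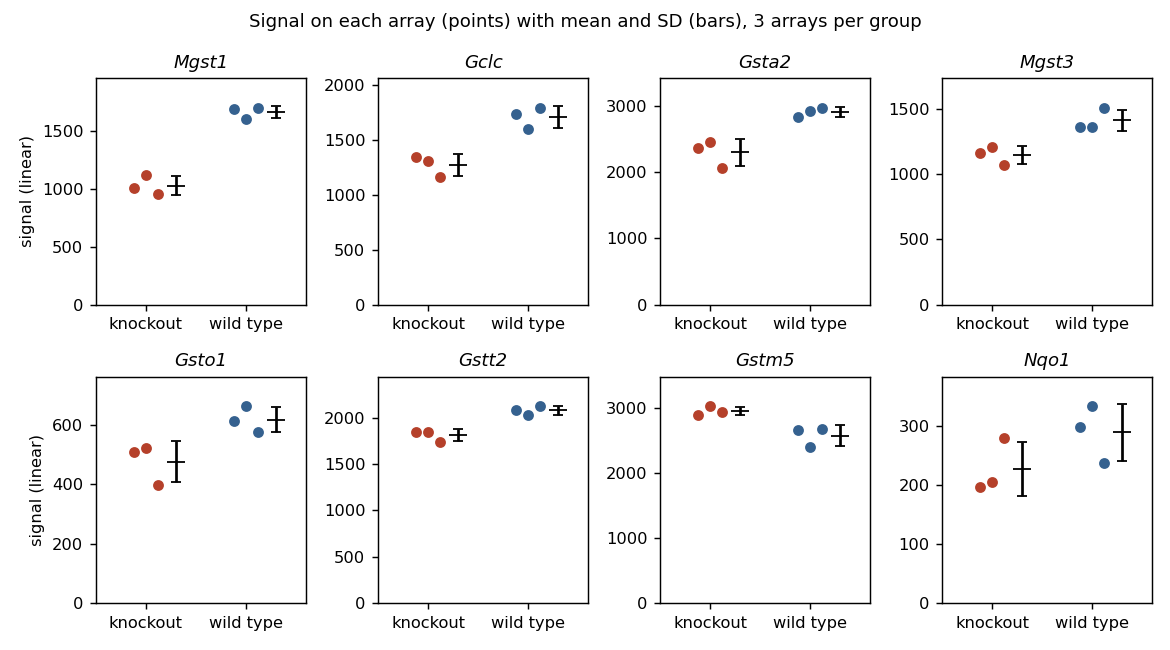
Linear MAS5 signal of 8 genes on each array, knockout left and wild type right in each panel. Points are arrays, and the bar beside them shows the mean and SD (n = 3). Mgst1, Gclc, Gsta2, Mgst3, Gsto1 and Gstt2 have all knockout points below all wild type points, Gstm5 has them above, and Nqo1 overlaps.

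None of the 3 tested glutathione peroxidases was called. Gpx1, the cytosolic selenoenzyme, had signals of 5986, 6538 and 7313 in knockout and 6199, 5592 and 6894 in wild type, and a log2 change of 0.09. Gpx3, the secreted plasma peroxidase that is made mainly in the proximal tubule, had 5424, 6268 and 8738 in knockout and 5925, 5461 and 7106 in wild type. Knockout array 3, which also had the highest median signal and another solution type in its record, stood above all others. The log2 change of 0.12 (95% interval −0.23 to 0.47) was −0.15 on the arrays of station 1, while knockout array 3 stood 0.68 above wild type array 2 on station 2. Gpx4, which protects membranes from lipid peroxidation, had a log2 change of −0.01 on both of its probe sets. Gpx7 was under the filter, with signals of 23.9 to 30.8 in knockout and 24.0 to 27.5 in wild type.

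The thioredoxin system and the superoxide dismutases were likewise not called. Txn1, thioredoxin, had signals of 3661, 3835 and 3672 in knockout and 3704, 3294 and 3907 in wild type, with a log2 change of 0.04. The reductases Txnrd1, cytosolic, and Txnrd2, mitochondrial, were at −0.09 and −0.07. Txnip, which binds and inhibits thioredoxin, had 1319, 1294 and 1216 in knockout and 1188, 1124 and 1195 in wild type. The Txnip groups did not overlap, the log2 change was 0.13 (limma adjusted p = 0.3), and its second probe set, 1415997_at, was at −0.02. Sod3, the extracellular dismutase, had 2995, 3043 and 3375 in knockout and 2884, 2580 and 3338 in wild type. These overlap, and the log2 changes were 0.10 for Sod3, 0.07 for the mitochondrial Sod2 and 0.03 for the cytosolic Sod1.

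The peroxiredoxins reduce hydrogen peroxide with electrons from thioredoxin. Of the 3 tested, Prdx3 (mitochondrial) had a log2 change of 0.01 and Prdx4 (endoplasmic reticulum) −0.06. Prdx2, the cytosolic enzyme, gave different answers on its 2 probe sets. On the representative one, 1418506_a_at, signals were 2266, 2461 and 2247 in knockout and 2418, 2303 and 2477 in wild type, which overlap, at a log2 change of −0.05 (limma adjusted p = 0.769). On the other, 1430979_a_at, signals were 144, 183 and 163 in knockout and 406, 339 and 437 in wild type. That is 2.41-fold lower without overlap, with a log2 change of −1.27 (SE 0.12) and a limma adjusted p of 0.000905 over all probe sets. Relative to 1418506_a_at on the same arrays, 1430979_a_at was lower by 1.22 on the log2 scale in knockout (exact permutation p = 0.1, the smallest possible). This was 1 of the 9 pairs chosen after their values were seen, all at 0.1, so that p is not an independent test. Averaging the probe sets gave a log2 change of −0.66 for Prdx2, which was called (adjusted p = 0.00102; 0.00102 to 0.926 over the alternatives). The probe sequences were not used here, so the transcript that 1430979_a_at reads is not known.

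In all, 20 of the tested genes had more than 1 probe set above the filter. In 11 of them all probe sets had the same sign of change, and in 9 some had the opposite sign. After Prdx2 the widest gap from the representative probe set was 0.73 on the log2 scale, for Srxn1, followed by 0.41 for Gstm1 and for Txnrd1. For Gclc it was 0.09, as it was for Gsto1.

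**Figure D3:**
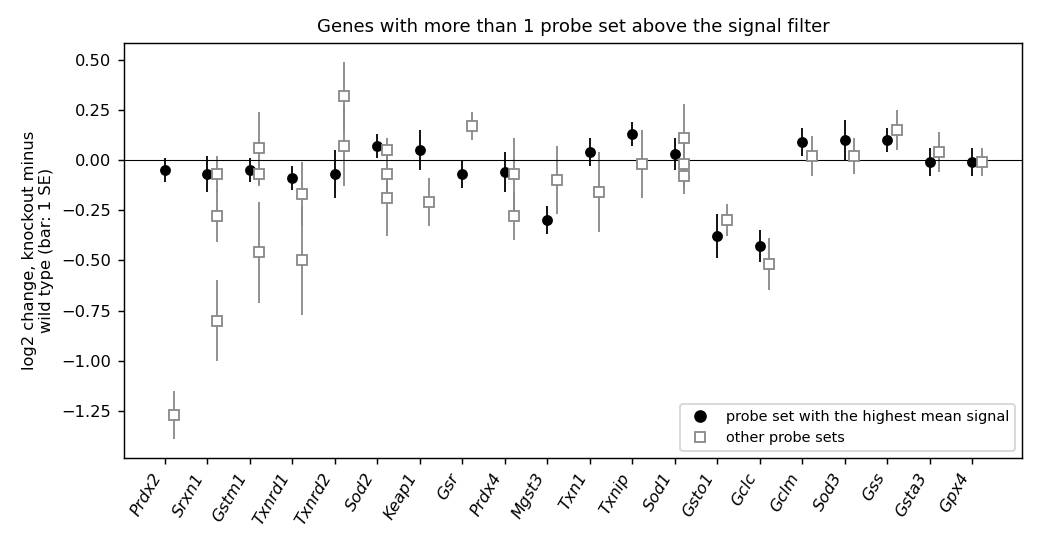
Log2 change, knockout minus wild type, of each probe set above the signal filter for the 20 genes that have several, with bars of 1 SE, ordered by the widest gap. Filled circles are the probe set with the highest mean signal, open squares the others. The second probe set of Prdx2 stands at −1.27 while its first is at −0.05, and both probe sets of Gclc and of Gsto1 lie below 0.

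Around these genes, 7 lists of other glutathione, peroxide and NRF2 genes were read from the same fit. They named 157 genes, of which 118 were tested, and 5 rose and 13 fell. Among all tested genes 3.24% were called higher and 3.24% lower, or 6.48% in either direction. These are the rates to set beside each list below. The lists were chosen with earlier results of these data known, and none was tested as a set. In glutathione breakdown, cysteine supply and export, 3 of 22 tested genes rose and 2 fell. Ggct, which turns gamma-glutamyl amino acids into oxoproline, was 1.59-fold higher, with signals of 733, 949 and 893 in knockout and 526, 530 and 558 in wild type. Chac1, which cleaves glutathione in the cytosol, was 1.80-fold lower (112, 95.7 and 92.0 in knockout, 189, 195 and 156 in wild type), a call that ended within station 1 (limma adjusted p = 0.0563). Glo1, which detoxifies methylglyoxal with glutathione as cofactor, was 1.56-fold lower, with signals of 1103, 1220 and 1145 in knockout and 1821, 1743 and 1836 in wild type. All 4 Glo1 probe sets were lower, by 1.36-fold to 1.80-fold. The efflux pump gene Abcc4 rose 1.52-fold. So did Lap3, a leucine aminopeptidase named after its values were seen, by 1.24-fold.

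Among NRF2's other known targets 3 of 21 tested genes fell and none rose, and the list's median log2 change was 0.00. Hmox1, heme oxygenase, was 2.28-fold lower, with signals of 203, 119 and 138 in knockout and 323, 392 and 312 in wild type. The groups did not overlap (limma adjusted p = 0.00192), and the call ended within station 1 (0.0561). Blvrb, which encodes a biliverdin and flavin reductase, was 2.81-fold lower (114, 108 and 72.7 in knockout, 276, 248 and 291 in wild type), and Cbr1, a carbonyl reductase, fell by 0.48 on the log2 scale. None of 12 tested partners, repressors and degradation factors of NRF2 was called, where limma gave an unadjusted p under 0.05 for 2. None of 9 other tested transferases and peroxidases was called, with 2 at an unadjusted p under 0.05. Among all tested genes 19.4% had an unadjusted p under 0.05 by limma, so neither count stands out.

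Among glutaredoxins and further thioredoxin, sulfoxide and peroxide enzymes, 3 of 30 tested genes fell and 1 rose. Glrx, glutaredoxin, which removes glutathione from protein thiols, was 1.37-fold lower (405, 444 and 440 in knockout, 655, 544 and 576 in wild type). Sesn2, a stress-induced sestrin, was 1.48-fold lower (272, 251 and 272 in knockout, 344, 428 and 407 in wild type). Selenow, a selenoprotein, was 1.25-fold lower, but not without any 1 of the 6 arrays (adjusted p up to 0.127). Txnl4a, which despite its name is a splicing factor, was 1.21-fold higher, a call kept without 2 of the 6 arrays and lost on the average of its probe sets and on its dim second probe set alone (adjusted p = 0.984).

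Of 16 tested genes of NADPH supply 3 fell and none rose. Nadk, which makes NADP from NAD, was 1.22-fold lower on its representative probe set, with signals of 1323, 1352 and 1362 in knockout and 1597, 1633 and 1691 in wild type. Its second probe set was at a log2 change of 0.05, and the call ended when both were averaged (adjusted p = 0.409) and without wild type array 3 (0.0566). Nnt, the mitochondrial transhydrogenase, was 1.17-fold lower and Mthfd2, of mitochondrial folate metabolism, 1.87-fold lower. The call of Nnt ended without any 1 array (adjusted p up to 0.181), and that of Mthfd2 was kept without 2 of the 6 arrays (up to 0.122).

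Of 15 tested genes of oxidant-producing enzymes 2 fell and 1 rose. Nox4, the hydrogen peroxide-forming NADPH oxidase of the kidney, was 1.29-fold lower, with signals of 1763, 2038 and 1928 in knockout and 2468, 2381 and 2532 in wild type. Its second probe set was also lower, at a log2 change of −0.34. Maoa, monoamine oxidase A of the outer mitochondrial membrane, was 1.56-fold lower (153, 141 and 178 in knockout, 252, 227 and 255 in wild type). Hao2, a peroxisomal hydroxyacid oxidase that releases hydrogen peroxide, was 1.67-fold higher (4269, 4402 and 5267 in knockout, 2863, 2772 and 2685 in wild type). In all 3 the groups did not overlap, and the calls held without each array in turn (adjusted p up to 0.0495). Across these lists, the calls of Lap3, Sesn2, Cbr1, Nadk, Selenow, Txnl4a, Mthfd2 and Nnt also ended within station 1, and those of Lap3, Glrx, Nox4, Nadk, Selenow, Txnl4a, Mthfd2 and Nnt ended without an intensity trend.

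**Figure D4:**
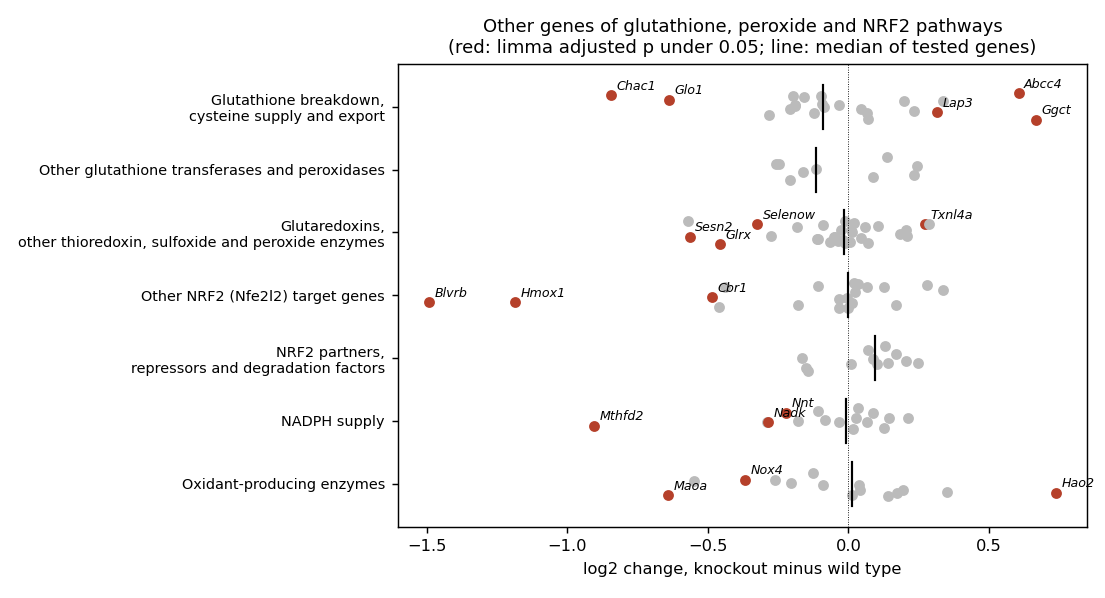
Log2 change, knockout minus wild type, of the tested genes of 7 lists around glutathione and peroxide handling, 1 point per gene (n = 3 arrays per group). Red points passed limma at an adjusted p under 0.05 and are named, and black lines are list medians. Blvrb and Hmox1 lie farthest to the left, and Hao2, Ggct and Abcc4 farthest to the right.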

How the data were processed

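The authors made the deposited intensity values, linear signals of 45101 probe sets on 6 arrays, by MAS5 in GCOS 1.4, as named in the submitters' processing notes. Each array's trimmed mean was 150. Detection calls, the genome build and probe sequences are not given in the sources used here, so a dim signal could not be told from background. Of 45037 probe sets that are not controls, 34945 carry 1 gene symbol, 932 several and 9160 none. RefSeq held 34741 of the 34945 single-gene IDs and changed no symbol.

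The test used log2 signals with no pseudocount. Probe sets with a mean signal of at least 41.9, the median, were kept, and the brightest stood for its gene. The two-sided test of knockout against wild type used limma 3.58.1 in R 4.3.3 (lmFit, then eBayes with trend), with Benjamini-Hochberg adjustment over 11620 genes at 0.05. Means and SDs are of linear signals, and fold changes are ratios of geometric means. Probe sets other than the representative were fitted together over all 45037. That fit is adjusted over more tests than the fit of genes. In it the representatives of Mgst1 (limma adjusted p = 0.00123) and Gclc (0.0231) passed 0.05, and those of Gsta2 and Mgst3 did not. The precision is limited by the number of arrays.

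The steps were tested on simulated data, in 10 simulations with 200 changed genes each. Log2 changes of 0.5 were recovered with the right sign in 45.3% of cases, changes of 1 in 86.8% and changes of −1 in 82.6%. Of all calls, 4.9% were false. A change of 0.5 or less can therefore go uncalled. The simulated noise was independent between genes, and the changed genes were drawn from all 11620 tested genes. The rates need not hold for the 37 genes, whose median standard error was 0.074 against 0.115 for all tested genes. Genes and lists were chosen with earlier results of these data known, so that no list was tested as a set. All 43 genes are named. Values on all arrays are given for the called genes, the 3 nearest the threshold and the brightest of each role, and up to 4 called genes are named per further list, with Lap3 as the exception, a further gene named after its values were seen. Other genes and probe sets given with all values were singled out after they were seen. Tables and plots used matplotlib 3.10.9, numpy 2.4.6 and pandas 2.3.3 under Python 3.11.15.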

Additional observations from a re-analysis of the deposited data

How the results depend on the processing

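Alternatives changed the transform, the normalization between arrays, the filter, how probe sets stand for a gene, the variance moderation, array weights, the threshold and blocks, and left out each array. Of the 37 genes, 4 were called lower and none higher. The number called lower was 1 without an intensity trend (Mgst1), 2 within station 1 (Gclc and Mgst1), 2 of 29 tested without probe sets named _x_at, _s_at or _a_at (Gclc and Mgst3, with Mgst1 and Gsta2 then not tested), and 2 to 4 without 1 array, with 2 without any wild type array. The number called higher was 1 after quantile normalization (Gstm5) and 0 without any 1 array. Over all genes, 377 were called higher and 376 lower. The higher ones were 236 without a trend and 217 within station 1, and 245 to 343 without 1 array (245 without wild type array 2). The lower ones were 241 within station 1 and 250 to 395 without 1 array (250 without wild type array 3). The cause of these moves was not tested, though fewer arrays or genes enter some of the fits. For single genes, 634 of the alternative values kept their direction or had no call to lose, 14 lost a call, 8 gained one and none reversed a called direction. The same array numbers in the groups do not pair the arrays: their deviations from the group means correlated at 0.021, 0.031 and −0.034 across genes. A replicate block gave 368 genes higher, 397 lower and 5 of the 37 lower, the added gene being Gsto1 (adjusted p = 0.0145). With 3 arrays a group and no detection calls, small differences and dim genes are the least certain.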
